A study of Mus musculus with 12 samples.

Results

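Polysomal and input RNA of control mouse limb buds were compared across all genes, to describe which classes of RNA were more or less abundant on polysomes than in the lysate they came from. The libraries were chosen by their labels: 3 polysome and 3 input libraries of the control genotype, 6 of the 12 in the series. All were from E12.5 embryonic limb buds labelled cHet, with the genotype Mettl14 wt/flox, so both fractions compared carried 1 floxed allele. Mettl14 encodes the partner subunit of Mettl3 in the enzyme that adds m6A, the N6-methyladenosine mark of mRNA, and the other 6 libraries are the same fractions of limb buds labelled cKO, with Mettl14 flox/flox. The Cre driver, the cells in which it acts, the number of embryos behind a lysate and the gradient fractions that were pooled are not given in the sources used here. Input is the RNA of a cytoplasmic lysate, and polysome is the RNA recovered from that lysate after ultracentrifugation through a sucrose gradient. FPKM, the unit throughout, is a fragment count scaled to gene length and library size. Of 54532 genes listed, 13097 were tested, those with 3 or more of the 6 libraries at an FPKM of 1 or above.

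A polysome is an mRNA that carries several ribosomes at once, and it sediments faster than free mRNA or an mRNA with a single ribosome. The share of an mRNA found in that fraction is a common measure of how much of it is being translated, and it depends on how often ribosomes start, how long they stay and how long the reading frame is. In the limb bud at this stage, mesenchyme condenses into cartilage and its cells make collagens, proteoglycans and other secreted matrix proteins. These mRNAs are translated at the endoplasmic reticulum, while those of mitochondrial, nuclear and cytoskeletal proteins are largely translated in the cytosol.

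The polysome to input ratio is given as log2 of polysome over input, fitted by limma within lysates. A value of 0 means the same FPKM in both fractions, and not that every copy of an mRNA sat on polysomes: both libraries were scaled to their own totals, so the ratio ranks RNAs within a lysate. The gene model's length divides both FPKM values and cancels in the ratio. Error on a single gene is limma's moderated standard error (SE). It mixes the gene's own spread over 3 lysates with the spread typical of genes of its intensity. All adjusted p-values are limma's after Benjamini-Hochberg adjustment over all genes tested, and a gene was called at an adjusted p under 0.05.

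The 6 libraries held 10349912 to 30068823 assigned reads, fewest in polysome replicate 2. Mitochondrial RNA took 2.69% to 3.04% of the reads in input and 0.502% to 1.13% on polysomes. Globin RNA took 0.676% to 1.67% in input and 1.22% to 2.21% on polysomes. The 10 markers of limb mesenchyme were all measured and summed to 860.0 to 1044 FPKM in input and 1531 to 1721 FPKM on polysomes. The distal limb homeobox gene Hoxd13 alone reached 212, 232 and 289 FPKM in input and 375, 417 and 492 FPKM on polysomes. Log2 ratios of the 3 lysates correlated with each other at 0.86 to 0.90 (Pearson, across 13097 genes that share their libraries).

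Most genes differed between polysomes and input: 5135 of the 13097 tested were called higher (39.2%) and 4963 lower (37.9%), together 77.1%. Differences of at least 2-fold were rarer, at 928 genes higher (7.09%) and 1367 lower (10.4%). The log2 ratios had a median of 0.018, and the 25th and 75th percentiles were −0.58 and 0.57. Scaling each library by its summed FPKM over nuclear protein-coding genes moved the median of all genes to −0.20 and left 3864 genes higher and 6150 lower, so that 38.6% of the calls were higher in place of 50.9%. The medians of gene lists given here stand beside this median of all genes, and the counts of members called beside the 39.2% higher and 37.9% lower.

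Among protein-coding genes called with separate groups and 5 FPKM or more on polysomes, those most enriched had short reading frames. Hist1h2ag, a replication-dependent histone gene, had 2.24, 3.10 and 2.09 FPKM in input and 8.61, 11.9 and 7.71 FPKM on polysomes (log2 1.88, SE 0.08, adjusted p = 2.03e-05). Lsm7, a subunit of the ring that binds U6 snRNA and decaying mRNA, had 43.1, 41.7 and 44.3 FPKM in input and 149, 126 and 133 FPKM on polysomes (log2 1.65, SE 0.07, adjusted p = 2.03e-05). For Nop10, a component of the small nucleolar particles that modify ribosomal RNA, the values were 65.4, 69.7 and 66.5 FPKM in input and 215, 204 and 195 FPKM on polysomes (log2 1.60, SE 0.07, adjusted p = 2.03e-05). In each of these 3 genes every polysome library lay above every input library. The same held for Cox6b1, a subunit of cytochrome c oxidase, with 196, 215 and 203 FPKM in input and 603, 612 and 564 FPKM on polysomes (log2 1.54, SE 0.07, adjusted p = 2.03e-05). The others among the 12 highest were Hist1h2ah, Tmsb15b1, Selenom, Ppbp, Dbi, Uqcr11, Hist3h2ba and Crip1, with log2 ratios of 1.51 to 1.71. Histone genes are near-identical copies of each other, and reads could be split between them by the counting.

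At the other end stood mitochondrially encoded mRNAs, followed by mRNAs of secreted and cell surface proteins. Gpc3 (ENSMUSG00000055653; chromosome X, 52272426 to 52613950, minus strand of mm10, as for all positions given), a glypican that tethers growth factors at the cell surface, had 240.4, 258 and 277 FPKM in input and 41.04, 49.2 and 47.7 FPKM on polysomes (log2 −2.49, SE 0.07, adjusted p = 1.42e-05). Col1a1 (ENSMUSG00000001506; chromosome 11, 94936224 to 94953042, plus strand), a chain of type I collagen, had 86.1, 88.2 and 89.1 FPKM in input and 17.5, 19.2 and 16.2 FPKM on polysomes (log2 −2.31, SE 0.07, adjusted p = 2.03e-05). Every polysome library of these genes lay below every input library, by more than 4-fold in the group means. By the naming rule the 12 lowest included mt-Atp6, mt-Co2, mt-Co3, mt-Nd1, mt-Nd3, mt-Nd2, mt-Nd4l and mt-Cytb, then Gpc3, Eno1b, Col1a1 and Col3a1, at log2 ratios of −6.61 to −2.29. Chosen after these values were seen, the next nuclear genes were Tnc, Col4a1, Tmem132a, Cdh5, Col4a2, Ftl1, Col18a1 and Nynrin, at −2.27 to −2.12. Eno1b is a near copy of the glycolysis gene Eno1 and its reads are uncertain.

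**Figure D1:**
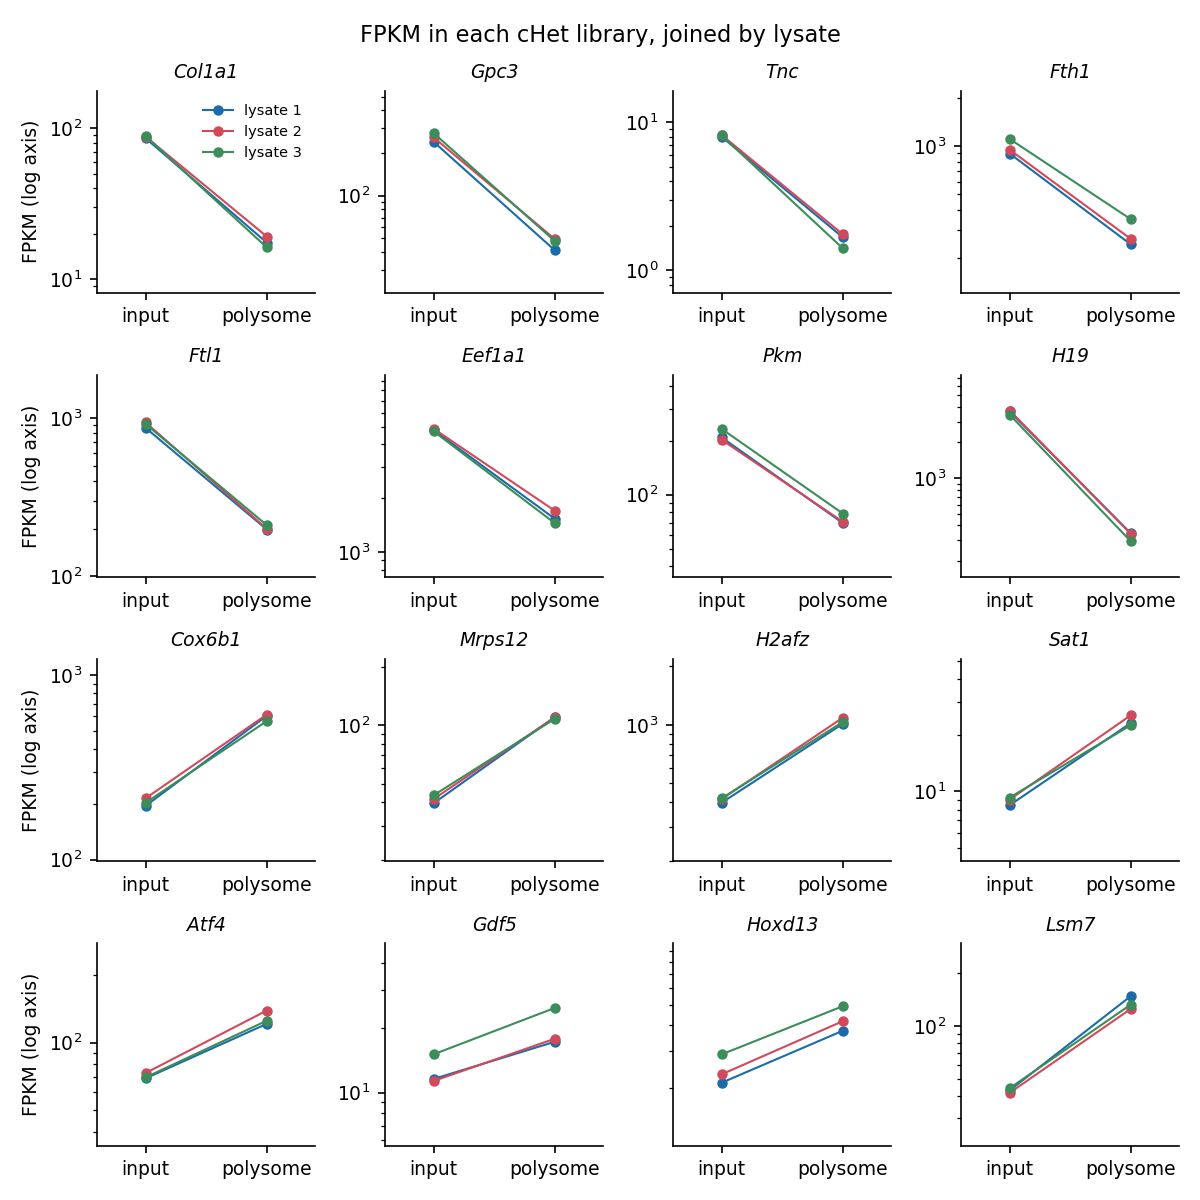
FPKM of 16 genes in each cHet library on a log axis, with input and polysome values of a lysate joined by a line and 1 colour per lysate. The lines of the 3 lysates run the same way in every panel, falling for Col1a1, Gpc3, Tnc, Fth1, Ftl1, Eef1a1, Pkm and H19 and rising for the other 8.

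Coding length was the feature that ordered the polysome to input ratio most. It was taken from a representative GENCODE M21 transcript of each gene (the same build, mm10), which was found for 11570 of 11591 nuclear protein-coding genes tested. Genes with a reading frame under 0.3 kb had median log2 ratios of 0.88, 1.02 and 0.86 in lysates 1 to 3, and those of 0.3 to 0.5 kb had 0.89, 0.88 and 0.88. The medians crossed 0 in the class of 1 to 1.5 kb, at 0.032, −0.016 and 0.081. From 3 to 5 kb they were −0.70, −0.63 and −0.82, and at 5 kb and over −0.82, −0.61 and −1.02. Of the 860 genes of 0.3 to 0.5 kb, 740 were called higher and 34 lower, against 39.2% and 37.9% of all genes. Of the 454 genes of 5 kb and over, 7 were called higher and 400 lower. None of the 1059 genes of 3 to 5 kb or of the 454 longer ones was called at least 2-fold higher, while 37.0% of the genes of 0.3 to 0.5 kb were.

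**Figure D2:**
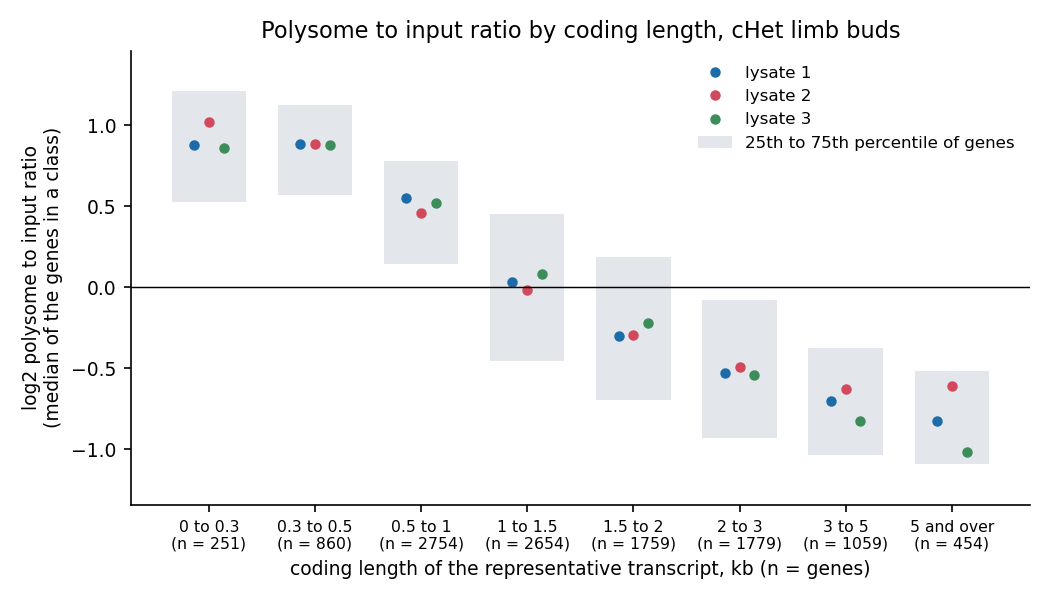
Median log2 polysome to input ratio of nuclear protein-coding genes in 8 classes of coding length (kb), with 1 point per lysate and grey bars for the 25th to 75th percentile of the genes in a class. The medians fall from near 0.9 under 0.5 kb to −0.61 to −1.02 at 5 kb and over, and the 3 lysates lie close together except in the longest class.

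Across genes, Spearman's rho between coding length and the log2 ratio was −0.65, −0.63 and −0.68 in lysates 1 to 3. Gene length, the union of all exons that the authors' table gives, tracked the ratio less closely (rho −0.41 ± 0.024, SD, n = 3 lysates), with medians from 0.90 under 1 kb to −0.42 at 6 kb and over. Exon number gave −0.52 ± 0.0090 and 3′ UTR length −0.088 ± 0.0063. With 5′ UTR length there was next to no relation (rho 0.0055 ± 0.0052). In a linear fit, log2 coding length alone took up 40.01% ± 2.89 of the variance of the log2 ratio over 11090 genes (SD, n = 3 lysates). All 8 features together (coding length, 5′ and 3′ UTR lengths, exon number, GC of both UTRs and of codon position 3, and upstream AUG count) took up 46.4% ± 2.62, and the 7 without coding length 27.8% ± 1.06. These are descriptions across genes, which share their libraries and are not replicates.

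Subtracting the running median of 501 genes in order of coding length left little of the relation with gene length (rho 0.034), 3′ UTR length (0.020) or exon number (−0.035). The relation with the number of AUGs upstream of the main start grew instead, from 0.10 ± 0.018 to 0.26 ± 0.0099. An upstream AUG can start a short reading frame in the 5′ UTR, and many such frames lower initiation at the main start. The 5521 genes with none had a median log2 ratio of −0.15, the 2600 with 1 had 0.048 and the 1271 with 4 or more had 0.16. After the coding-length trend was removed these medians were −0.14, 0.053 and 0.22. Upstream AUGs are more frequent in longer 5′ UTRs, whose own rho was 0.11 on that scale.

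**Figure D3:**
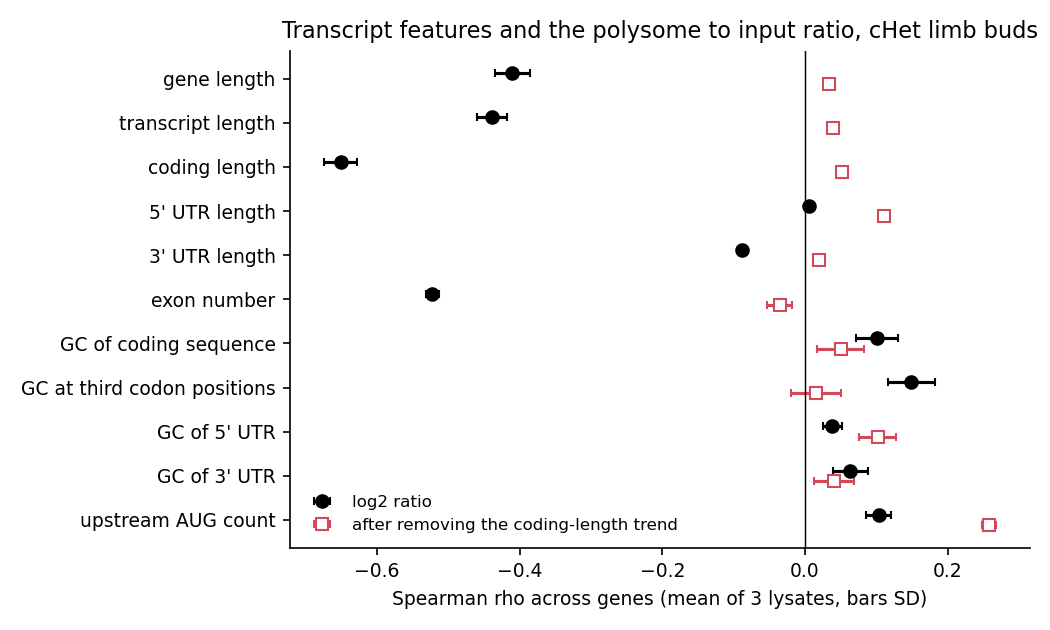
Spearman's rho across genes between 11 transcript features and the log2 polysome to input ratio (black) and the ratio after the coding-length trend was subtracted (red squares), as means of 3 lysates with SD bars. Coding length lies near −0.65, and after subtraction only upstream AUG count exceeds 0.2.

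Noncoding RNAs were far from uniform. Long noncoding biotypes together (472 genes tested) had a median log2 ratio of 0.43, with 242 called higher and 66 lower, where protein-coding genes had −0.0082. The median was 0.40 for 188 lincRNAs, 0.47 for 139 antisense genes and 0.42 for 100 processed transcripts, and strandedness is not given, so antisense reads cannot be told apart from those of the partner gene. Long noncoding genes showed no steady fall with gene length, with medians of 0.33 under 1 kb, 0.60 from 1 to 2 kb, 0.47 from 2 to 4 kb and 0.39 at 4 kb and over. Nuclear protein-coding genes had 0.90 under 1 kb, 0.58 from 1 to 2 kb, 0.30 from 2 to 3 kb and 0.12 from 3 to 4 kb. From 4 to 6 kb they had −0.082, and −0.42 above. Long noncoding genes were thus the lower under 1 kb and the higher from 2 kb. With no filter on low values, the long noncoding minus protein-coding median was 0.0. The 745 processed pseudogenes, whose reads can come from their parent genes, had 0.11. Of 29 snoRNA genes 13 were called lower and 2 higher (median −1.22, 75th percentile −0.042). Of 31 miRNA genes 10 were called lower and 2 higher (median −0.68, 75th percentile −0.0019). Most members of both were not called lower, though most of their log2 ratios lay below 0. Reads on these short models can come from host transcripts.

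Individual long noncoding RNAs lay at both extremes. H19 (ENSMUSG00000000031; chromosome 7, 142575529 to 142578143, minus strand), an imprinted RNA that is abundant in embryonic mesoderm and is a precursor of miR-675, had 3650.1, 3714 and 3429.8 FPKM in input and 342, 340.1 and 293 FPKM on polysomes (log2 −3.47, SE 0.08, adjusted p = 6.93e-06). The drop of about 11-fold was the deepest of any long noncoding gene called, and all polysome libraries lay below all input libraries. Snhg6, Snhg8 and Rian fell with it, at −1.91, −1.79 and −1.84. Tmem134, which the authors' table classes as noncoding, had −1.96. The highest were Gm42067, 2010204K13Rik, 5430431A17Rik, Gm34030 and Gm47163, at 1.31 to 1.496, each under 13 FPKM in every library. Of 22 hosts of small nucleolar RNAs, 15 were tested, with 4 higher and 7 lower: Snhg5 rose (0.77) and Dancr fell (−1.38). The lysate medians were −0.49, 0.017 and −0.53, with lysate 2, whose polysome library was the shallowest, apart. Of 17 long noncoding RNAs known from the nucleus, 9 were tested, with 1 higher and 6 lower. Malat1, retained in nuclear speckles in most cells, was low in this cytoplasmic RNA at 4.84, 3.05 and 5.31 FPKM in input and 2.14, 1.25 and 1.64 FPKM on polysomes (log2 −1.33, SE 0.13, adjusted p = 9.52e-05). 2900097C17Rik fell (−1.499), and Airn, the antisense transcript of Igf2r, rose (0.78).

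**Figure D4:**
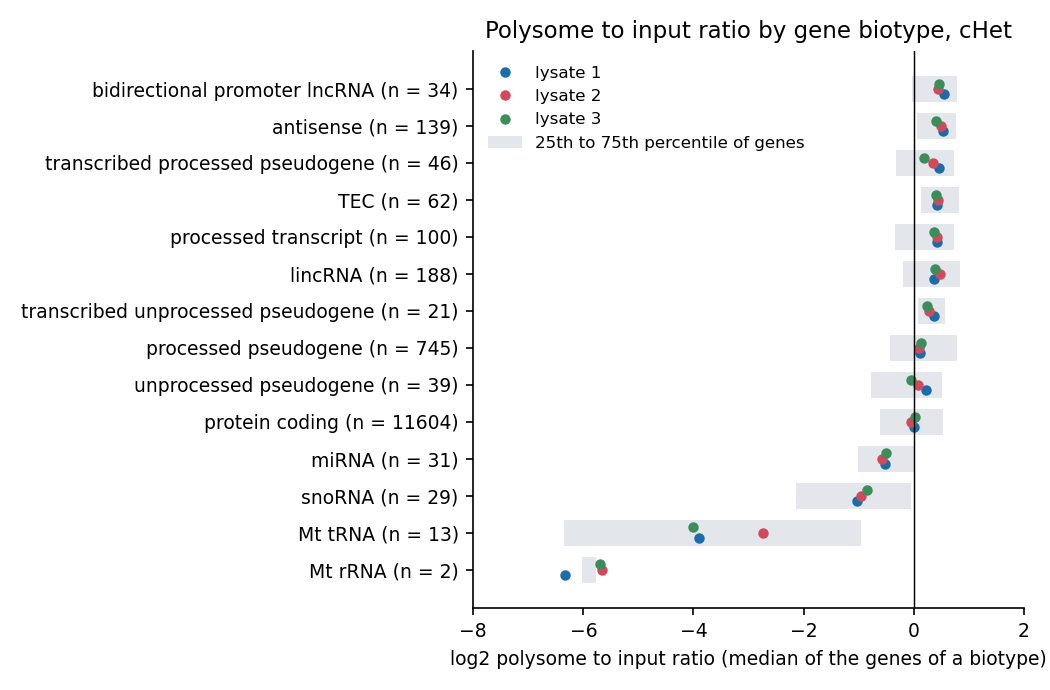
Median log2 polysome to input ratio by gene biotype (biotypes with at least 20 genes tested, and mitochondrial rRNA and tRNA), with 1 point per lysate and grey bars for the 25th to 75th percentile of genes. Long noncoding biotypes lie near 0.4 to 0.5, protein-coding genes near 0, and medians of snoRNA and mitochondrial RNA genes far below.

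RNAs of the mitochondrial genome were the most depleted class. They are made and translated inside the organelle by its own ribosomes. Of 13 mRNAs tested, 13 were called lower, against 37.9% of all genes. The rRNA genes mt-Rnr1 and mt-Rnr2 had log2 ratios of −5.64 and −6.14, with 337, 407 and 366 FPKM in input and 3.31, 7.23 and 5.59 FPKM on polysomes for mt-Rnr2. mt-Nd1, a complex I subunit, had 4119, 4477 and 3877 FPKM in input and 85.4, 187 and 91.2 FPKM on polysomes (log2 −5.19, SE 0.18, adjusted p = 2.03e-05). mt-Co1 kept more, at 6252, 6497 and 6012 FPKM in input and 1402, 3295 and 1769 FPKM on polysomes (−1.63), and mt-Nd5 kept the most (−0.79). Of the 13 mRNAs, 11 had their highest polysome value in lysate 2, all but mt-Nd3 and mt-Atp8, and mitochondrial RNA took 1.13% of that library's reads. Copies of mitochondrial DNA in nuclear chromosomes can share reads with these genes. mt-Atp8 had no read in any polysome library, which with a floor of 3 reads per library put it at least 7.27, 2.19 and 3.64-fold lower in lysates 1 to 3. With mt-Atp8 at that bound the list's median was −2.64, and with its fitted value −3.35. The medians by lysate were −3.04, −2.74 and −2.78.

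mRNAs of secreted matrix proteins were lower on polysomes almost throughout. Of 29 collagen chains tested out of 44 listed, 28 were called lower and none higher, with lysate medians of −1.78, −1.72 and −1.95, and 26 were at least 2-fold lower. Col2a1, the collagen of cartilage, had 23.5, 18.98 and 26.7 FPKM in input and 7.05, 5.56 and 6.61 FPKM on polysomes (log2 −1.82, SE 0.08, adjusted p = 2.03e-05). Col18a1, Col1a2 and Col9a1, of basement membranes, bone and skin, and cartilage, had log2 ratios of −2.12, −2.11 and −1.81. Among 36 tested genes of cartilage matrix and matrix glycoproteins, 35 were lower and 1 higher (median −1.30). Tnc, for tenascin-C, had 7.99, 8.21 and 8.16 FPKM in input and 1.67, 1.75 and 1.41 FPKM on polysomes (log2 −2.27, SE 0.10, adjusted p = 2.03e-05), and Fbln2, Emilin1 and Agrn had −1.78, −1.64 and −1.79. Glypicans, syndecans and adhesion receptors followed, with 25 of 30 lower and 1 higher, among them Dag1 (−1.55), Itgb1 (−1.31) and Itga6 (−1.33), which anchor cells to matrix.

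These reading frames are long, with a median of 4362 bases for the tested collagens. After the coding-length trend was subtracted, medians were −1.07 for collagens and −0.93 for matrix genes, and 27 of 29 and 35 of 36 members lay below the trend. For glypicans, syndecans and adhesion receptors the median shrank from −1.01 to −0.31. Within the collagens rho with coding length was −0.015 ± 0.11.

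The machinery that moves proteins into the endoplasmic reticulum split by size. Of 35 genes tested, 13 were higher and 20 lower, and rho with coding length was −0.77 ± 0.022. Hspa5, the ER chaperone BiP, had 115, 113 and 146 FPKM in input and 27.7, 32.7 and 32.6 FPKM on polysomes (log2 −1.9997, SE 0.09, adjusted p = 2.03e-05). Pdia6 and Pdia4, which form disulfide bonds, and Rpn1, an oligosaccharyltransferase subunit, had −1.90, −1.68 and −1.62. Against these, the small subunits Dad1, Spcs1, Sec61b, Srp14 and Sec61g, picked out after their values were seen, had 1.28, 1.25, 1.25, 1.20 and 1.15. The 13 genes called higher had a median coding length of 450 bases and the 20 lower 1852.5 bases (the midpoint of an even number of genes).

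Nuclear genes of the respiratory chain showed the same split with most members at the short end. Of 77 subunits tested, 65 were called higher and 10 lower, with lysate medians of 1.07, 1.02 and 0.97. Uqcrb, of complex III, had 54.5, 44.5 and 49.9 FPKM in input and 143, 127 and 141 FPKM on polysomes (log2 1.47, SE 0.07, adjusted p = 2.03e-05), and Ndufb3 and Cox7b had 1.498 and 1.42. Sdha, the large catalytic subunit of complex II, went the other way with 39.7, 38.4 and 44.9 FPKM in input and 14.2, 14.7 and 16.8 FPKM on polysomes (log2 −1.42, SE 0.06, adjusted p = 2.03e-05). The subunits lower with it, named after their values were seen, included Atp5b (−1.35), Ndufs1 (−1.33), Atp5a1 (−1.30), Uqcrc2 (−1.23), Ndufv1, Uqcrc1, Ndufa9 and Cox7a2l. Median coding length was 390 bases among those higher and 1419 bases among those lower. Mitochondrial ribosomal proteins, which build the organelle's ribosome from cytosolic translation, were also mostly higher, 59 of 76 with 6 lower. Mrps12 had 39.5, 41.5 and 43.5 FPKM in input and 111, 110.2 and 108 FPKM on polysomes (log2 1.40, SE 0.07, adjusted p = 2.03e-05), and Mrpl20, Mrps6 and Mrps14 had 1.34, 1.35 and 1.21. After the coding-length trend was subtracted, the medians of both lists were 0.17 and 0.058.

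Histone and small nuclear ribonucleoprotein genes have short frames too, and most were higher. Of 51 replication-dependent histone genes tested, 40 were higher and 2 lower, with lysate medians of 0.83, 0.57 and 1.18. These mRNAs end in a stem-loop and not a poly(A) tail, and how libraries were selected for poly(A) is not given. Hist3h2ba had 27.1, 35.6 and 28.3 FPKM in input and 85.5, 98.5 and 76.1 FPKM on polysomes (log2 1.51, SE 0.07, adjusted p = 2.03e-05), and Hist1h2bc and Hist1h2bk had 1.17 and 1.23. Of the 11 polyadenylated replacement variants 9 were higher and none lower. H2afz, the variant H2A.Z, had 398, 415 and 419 FPKM in input and 1012, 1088 and 1034 FPKM on polysomes (log2 1.35, SE 0.07, adjusted p = 2.15e-05), and H2afx, H3f3b and H3f3a had 1.29, 1.26 and 1.13. Sm, LSm and snRNP proteins counted 20 of 31 higher and 4 lower, led by Lsm7, Snrnp27 (1.47), Snrpd3 (1.44) and Snrpd2 (1.36). Set against genes of like coding length, the 3 medians became −0.062, 0.24 and −0.18.

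**Figure D5:**
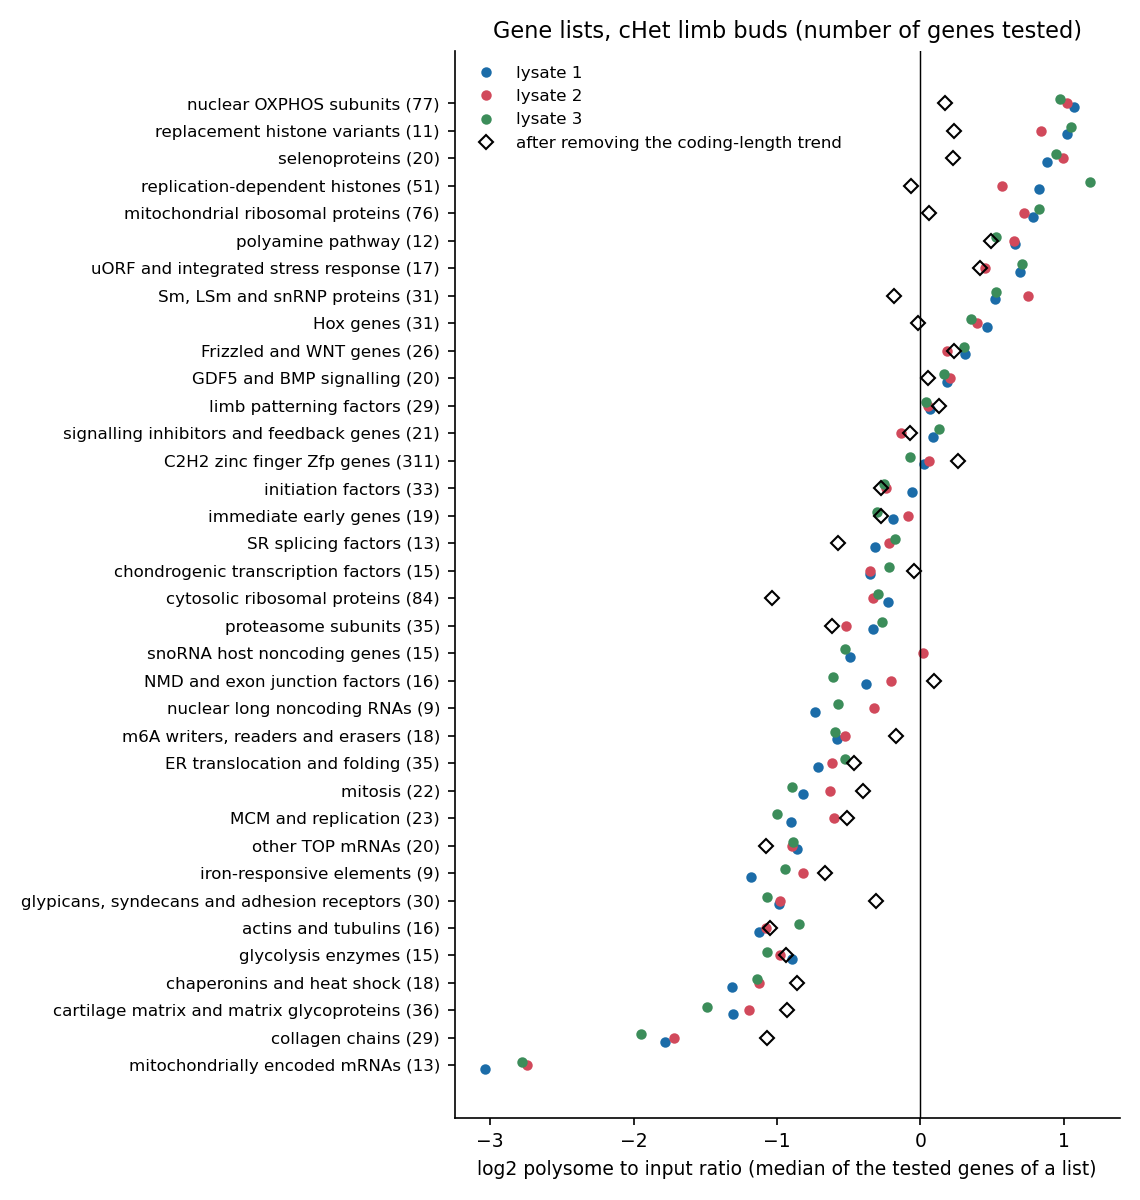
Median log2 polysome to input ratio of 36 gene lists, with the number of genes tested in parentheses, 1 coloured point per lysate and open diamonds for the median after the coding-length trend was subtracted (none for noncoding and mitochondrially encoded lists). Collagens and matrix genes lie lowest among nuclear lists and respiratory subunits highest, and the diamonds show cytosolic ribosomal proteins moving from −0.33 to −1.04.

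Cytosolic ribosomal proteins were lower than other genes of their length. Their reading frames are as short as those of respiratory subunits, with medians of 444 and 432 bases, yet 45 of 84 were called lower and 8 higher (lysate medians −0.23, −0.33 and −0.30). Rplp0, the stalk protein uL10, had 1883, 2054 and 1922 FPKM in input and 665, 673 and 534 FPKM on polysomes (log2 −1.65, SE 0.10, adjusted p = 2.21e-05). Rpsa, Rps4x and Rpl5 had −1.65, −1.35 and −1.17. Against genes of like coding length 81 of the 82 with a model lay below the trend, at a median of −1.04. The median of the 76 mitochondrial ribosomal proteins on that scale was 0.058. Many ribosomal protein genes have processed pseudogenes that could take reads from them.

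Other mRNAs of the translation machinery known to start with a terminal oligopyrimidine (TOP) tract were lower as well, 16 of 20 with 2 higher (lysate medians −0.86, −0.90 and −0.89). The tract follows the cap, and mRNAs that carry it leave polysomes when mTOR signalling is low. Eef1a1, the factor that brings aminoacyl-tRNA to the ribosome, had 4808, 4889 and 4732 FPKM in input and 1537, 1704 and 1453 FPKM on polysomes (log2 −1.62, SE 0.09, adjusted p = 2.19e-05). Pabpc1, the cytoplasmic poly(A)-binding protein, had 197, 185 and 192 FPKM in input and 57.6, 64.98 and 60.5 FPKM on polysomes (log2 −1.65, SE 0.08, adjusted p = 2.03e-05), and Eif3e and Eef1g had −1.30 and −1.25. To show the tract, the first 20 bases of the representative GENCODE M21 transcript are given for 5 genes of these lists that hold it at their annotated start, with the opening run of pyrimidines in capitals.
Rack1, chr11:48800360-48800379, plus strand: CTTTTTCTCCacagggtcgt
Rpl4, chr9:64173375-64173394, plus strand: CTTTTCCTgtgggagcagcc
Rps2, chr17:24720110-24720129, plus strand: CTTCTTCTTCTTCgggagaa
Eif3f, chr7:108934417-108934436, plus strand: CTCTTTCTCggcaagatggc
Pabpc1, chr15:36608954-36608973, minus strand: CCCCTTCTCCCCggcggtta
Log2 ratios of the 5 genes were −1.10 for Rack1, a scaffold protein of the small subunit, −1.13 for Rpl4, −0.68 for Rps2, −1.16 for Eif3f and −1.65 for Pabpc1. A C followed by at least 4 pyrimidines at the first base (transcript strand only) was found in 13 of 102 transcripts of both lists (12.7%) and in 257 of 11484 others (2.24%). The 5 genes shown were picked by name from the 13, so their ratios do not stand for the lists. Annotated starts can miss the true cap site, so the share without the run says nothing of those mRNAs. All 269 nuclear protein-coding genes with such a start and the table's features had a median log2 ratio of −0.099.

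Initiation factors divided by coding length (rho −0.74 ± 0.027), with 11 higher and 16 lower of 33. The scaffold subunits Eif3c (−1.55) and Eif3b (−1.12) fell, and the small factors Eif1ax (1.05) and Eif5a (1.22) rose. In 3 further lists most members were called lower. These were 10 of 15 glycolysis enzymes, 14 of 16 actins and tubulins and 16 of 18 chaperonins and heat shock genes, with 1, 2 and 1 higher. Pkm, pyruvate kinase, had 208, 202 and 232 FPKM in input and 69.5, 70.6 and 78.5 FPKM on polysomes (log2 −1.55, SE 0.07, adjusted p = 2.03e-05), and Pfkl, Eno1 and Pgk1 had −1.89, −1.57 and −1.07. Tubb5, a beta-tubulin, had 729, 704 and 736 FPKM in input and 270.5, 276 and 297 FPKM on polysomes (log2 −1.36, SE 0.07, adjusted p = 2.15e-05). Hsp90aa1, Cct3, Cct5 and Hspa9 had −1.82, −1.49, −1.24 and −1.27. Against genes of like coding length the 3 medians were −0.94, −1.05 and −0.86. Of 35 proteasome subunits 21 were lower and 10 higher, ordered by coding length (rho −0.81 ± 0.036), with Psmd2 (−1.66), Psmd1 (−1.33) and Psmd4 (−1.24) at the low end.

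Of 9 genes known for iron-responsive elements, most of them of iron metabolism, 7 were called lower on polysomes and none higher (lysate medians −1.18, −0.82 and −0.94). In a 5′ UTR this hairpin binds the iron regulatory proteins, which block initiation when iron is scarce. The element was found in 5′ UTRs by a search on the transcript strand for a C, 5 stem bases, the loop CAGTG with a next base other than G, and 5 bases that pair with the stem, G-U pairs included. It occurred in 17 of 20037 5′ UTRs of 18 bases or more (0.0848%), among them 5 of the iron list, of which 4 are shown here with the 6 loop bases in capitals.
Fth1, chr19:9982732-9982761, plus strand: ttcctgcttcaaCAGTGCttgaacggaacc
Ftl1, chr7:45459778-45459807, minus strand: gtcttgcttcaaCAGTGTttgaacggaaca
Slc40a1, chr1:45925464-45925493, minus strand: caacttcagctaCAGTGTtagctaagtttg
Alas2, chrX:150547458-150552150, plus strand: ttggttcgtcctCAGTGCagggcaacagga
The Alas2 stretch spans an exon junction, and its coordinates include the intron. Fth1 (ENSMUSG00000024661; chromosome 19, 9982703 to 9985092, plus strand), the heavy chain of the iron store ferritin, had 898, 949 and 1106 FPKM in input and 244, 264 and 350.3 FPKM on polysomes (log2 −1.79, SE 0.08, adjusted p = 2.03e-05). Ftl1, the light chain, had 866, 937 and 916 FPKM in input and 197, 199 and 210.3 FPKM on polysomes (log2 −2.16, SE 0.07, adjusted p = 2.03e-05). All polysome libraries of both ferritin genes lay below all input libraries. Slc40a1, the iron exporter ferroportin, had −0.93. Alas2, the first enzyme of heme synthesis in red cells, had 14.98, 15.6 and 40.7 FPKM in input and 5.34, 7.98 and 32.3 FPKM on polysomes (log2 −0.92, SE 0.19, adjusted p = 0.0038), highest in both fractions of lysate 3, so that its groups overlapped. It was not called in the fit without the pairing of fractions.

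Of the 12 tested genes that hold the element by this search, 10 were called lower and 1 higher, against 37.9% and 39.2% of all genes. Outside the list these were Ftl1-ps1 (−2.11), a ferritin copy whose reads are uncertain, Vwa2 (−1.64), Nasp (−1.24), Ecd (−0.90) and Nfib (−0.38) among the lower, Vti1b among the higher (0.61) and Eif2s1 at −0.091 (adjusted p = 0.227). Members of the list that this search did not find were Tfrc (−0.98), the transferrin receptor, with elements in its 3′ UTR, and Epas1 (−0.92), both called lower. The others were Slc11a2 (0.16) and Cdc14a (0.27), neither called, though quantile normalization called both higher (0.29 and 0.39). Against genes of like coding length the list had a median of −0.66.

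mRNAs known for upstream reading frames and the integrated stress response were mostly higher, 11 of 17 with 3 lower. In this response, phosphorylated eIF2 slows initiation while frames upstream steer ribosomes to the main start of a few mRNAs. Atf4 (ENSMUSG00000042406; chromosome 15, 80255184 to 80257541, plus strand), its central transcription factor, had 69.1, 73.03 and 69.8 FPKM in input and 121, 139 and 125 FPKM on polysomes (log2 0.86, SE 0.07, adjusted p = 4.53e-05). The factor Atf5 had 16.2, 16.2 and 16.6 FPKM in input and 33.5, 35.3 and 31.5 FPKM on polysomes (log2 1.02, SE 0.07, adjusted p = 3.28e-05), and Ppp1r15a, which recruits the eIF2 phosphatase, 9.74, 8.75 and 9.75 FPKM in input and 21.01, 20.4 and 19.8 FPKM on polysomes (log2 1.11, SE 0.07, adjusted p = 2.78e-05). In all 3 the polysome libraries lay above the input libraries. The membrane transporter gene Slc35a4 had 1.14 and the regulator Ifrd1 1.001. Gadd45a (0.95), Ddit3 (0.90), Cebpb (0.86), Hoxa3 (0.31) and Ppp1r15b (0.22) were also called higher, though Hoxa3 lost its call without any one lysate (0.25 to 0.38) and Ppp1r15b without lysate 1 (0.24) or, with its sign, under protein-coding scaling (−0.00489). Eprs (−1.31), Asns (−1.12) and Sesn2 (−0.47) were lower, of which Eprs and Asns encode amino acid enzymes. Sesn2 lost its call under quantile normalization (−0.31) and in the fit of all 12 libraries as 4 group means (adjusted p = 0.0550). Trib3, Tiparp and Ibtk were not called (0.26, −0.21 and −0.052). Some alternatives called them: protein-coding scaling put Tiparp (−0.43) and Ibtk (−0.28) lower. Without lysate 2, Tiparp was called lower (−0.29) and Trib3 higher (0.46). Against genes of like coding length 14 of 17 lay above the trend, at a median of 0.41.

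Upstream AUGs of Atf4 and Ifrd1 are shown to place these frames, as 21 bases around each upstream AUG (ATG in capitals) of the representative transcript.
Atf4 number 1, chr15:80255294-80255314, plus strand: ttttctctcATGgggccttta
Atf4 number 2, chr15:80255573-80255593, plus strand: gcggccaccATGgcgtattag
Atf4 number 3, chr15:80255672-80256213, plus strand: gcctaagccATGgcgctcttc
Ifrd1, chr12:40223147-40223167, minus strand: gagagaaacATGtatcgtttc
Frame 2 of Atf4 ends after 3 codons, and frame 3, which crosses an exon junction, runs for 59 codons and overlaps the start of the Atf4 frame. The single frame of Ifrd1 holds 52 codons. Atf5 has 2 such AUGs, the later one overlapping its main frame, and Ppp1r15a has 3.

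Genes of the polyamine pathway, several of them known for regulated upstream frames or frameshifts, were called higher in 11 of 12 cases with none lower (lysate medians 0.66, 0.66 and 0.52). Polyamines feed back on translation of several of these mRNAs. Sat1, which acetylates spermidine for export, had 8.44, 9.04 and 9.27 FPKM in input and 23.3, 25.6 and 22.6 FPKM on polysomes (log2 1.41, SE 0.07, adjusted p = 2.03e-05). Oaz1 and Oaz2, the antizymes made by frameshifting, had 1.27 and 1.17, and the synthases Srm and Sms 0.99 and 0.93. Odc1, ornithine decarboxylase, had 102, 102 and 102 FPKM in input and 145, 132 and 124 FPKM on polysomes (log2 0.39, SE 0.07, adjusted p = 0.00281). Amd1, adenosylmethionine decarboxylase, had 39.8, 40.3 and 41.3 FPKM in input and 52.8, 54.5 and 43.1 FPKM on polysomes (log2 0.30, SE 0.09, adjusted p = 0.0196). Its upstream frame of 6 codons and a stop, at which polyamines are known to stall ribosomes, reads as follows, start and stop in capitals.
Amd1, chr10:40302155-40302175, minus strand: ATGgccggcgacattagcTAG
Smox, Azin1, Azin2 and Amd2 were called higher at 0.70, 0.43, 0.39 and 0.43, and Paox was not (−0.12). All 12 lay above the coding-length trend, at a median of 0.49. Quantile normalization put Odc1 and Amd1 at −0.040 and −0.00175, so their direction depends on the scaling. Protein-coding scaling left Odc1, Amd1, Amd2 and Azin2 uncalled and called Paox lower (−0.34). Amd1 and Amd2 were not called without lysate 1 (0.25 and 0.37) or lysate 2 (0.23 and 0.36), nor Azin2 without lysate 1 (0.29). Selenoprotein mRNAs, which read a UGA codon as selenocysteine, counted 13 of 20 higher and 5 lower. Their median was 0.92, and 0.23 against genes of like coding length. Selenom had 20.4, 20.9 and 22.8 FPKM in input and 65.1, 64.1 and 62.5 FPKM on polysomes (log2 1.58, SE 0.07, adjusted p = 2.03e-05), and Selenos, Gpx3 and Msrb1 had 1.22, 1.26 and 1.44.

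Transcription factors and signals of limb development, other than the chondrogenic factors described below, had list medians near 0 or above. Of 31 Hox genes tested 21 were higher and 3 lower (lysate medians 0.47, 0.40 and 0.35), none by 2-fold. Hoxd13, Hoxa11, Hoxb9 and Hoxd9 had 0.81, 0.71, 0.72 and 0.52, while Hoxc12 (−0.53), Hoxb4 (−0.52) and Hoxa13 (−0.18) were the 3 lower. Their median fell to −0.019 against genes of like coding length. Limb patterning factors counted 9 higher and 7 lower of 29, both below the shares of all genes (39.2% and 37.9%). Msx1 had 70.1, 83.6 and 98.4 FPKM in input and 174, 174 and 207 FPKM on polysomes (log2 1.15, SE 0.08, adjusted p = 3.20e-05), and Lhx2, Twist1 and Hand2 had 1.17, 1.01 and 0.95. Zfp zinc finger genes split evenly, 94 higher and 88 lower of 311, both below those shares. Of 308 with a model, 234 lay above the trend for their coding length (median 0.26). Zfp428, Zfp771 and Zfp511 had 1.12, 1.02 and 0.99 and Zfp609 −1.05.

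Gdf5, a growth factor of joints and cartilage, had 11.6, 11.3 and 15.1 FPKM in input and 17.2, 17.8 and 24.8 FPKM on polysomes (log2 0.65, SE 0.07, adjusted p = 1.58e-04), and the polysome libraries all lay above the input libraries. Its list of BMP signalling genes counted 10 higher and 5 lower of 20, with the targets Id2 (1.12) and Id3 (0.87) and the ligand Bmp4 (0.92) higher. Frizzled and WNT genes counted 14 higher and 8 lower of 26, with the ligands Wnt4 (1.02) and Wnt7b (0.75) higher and the receptors Fzd7 (−1.09) and Lrp5 (−1.02) lower. Inhibitors and feedback genes of these pathways counted 8 higher and 6 lower of 21, near or below the 39.2% and 37.9% of all genes, with Bambi (1.05), Nkd1 (0.85) and Spry1 (0.73) higher and Dkk3 (−0.92) lower.

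Chondrogenic transcription factors leaned lower, with 2 higher and 9 lower of 15 (median −0.32). Against genes of like coding length their median was −0.043, with 11 below the trend and 4 above. Sox9, the master regulator of cartilage, had 29.8, 27.98 and 37.5 FPKM in input and 15.00, 16.6 and 21.96 FPKM on polysomes (log2 −0.83, SE 0.08, adjusted p = 8.22e-05), and Trps1 and Foxc1 had −0.71 and −0.63. Cbfb, the shared partner of RUNX factors, rose (log2 0.70, SE 0.07, adjusted p = 1.03e-04). Runx3 had 1.32, 1.06 and 1.49 FPKM in input and 2.31, 1.80 and 1.89 FPKM on polysomes (log2 0.60, SE 0.14, adjusted p = 0.00689), but was not called without lysate 1 (0.52). Runx2 had −0.27 (adjusted p = 0.0527) and Runx1 0.14 (adjusted p = 0.449). Some alternatives, protein-coding scaling among them (−0.49), called Runx2 lower. Mettl14 itself was lower on polysomes, with 4.09, 4.03 and 4.04 FPKM in input and 2.83, 3.07 and 3.02 FPKM on polysomes (log2 −0.43, SE 0.09, adjusted p = 0.00305). Its list of m6A writers, readers and erasers counted 3 higher and 13 lower of 18, among them the reader Igf2bp1 (−0.99), the eraser Fto (−1.01) and the writer subunit Virma (−1.01), while the eraser Alkbh5 rose (0.84). The list's median was −0.59, and −0.17 against genes of like coding length. In the fit of all 12 libraries as 4 group means, without lysates, Mettl14, Trps1 and Foxc1 were not called (adjusted p = 0.172, 0.136 and 0.0612).

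Cell cycle genes were mostly lower, where 39.2% of all genes were called higher and 37.9% lower. Against genes of like coding length the median was −0.51 for replication genes and −0.40 for mitosis genes, from −0.82 and −0.77. Across the genes of a list, rho with coding length was −0.77 ± 0.042 for replication genes, −0.58 ± 0.12 for mitosis genes and −0.36 ± 0.15 for SR splicing factors. Of 23 replication genes 5 were higher and 16 lower: the helicase subunits Mcm5, Mcm6 and Mcm4 had −1.64, −1.54 and −1.37 and the small replication protein Rpa3 1.32. Mitosis genes counted 4 higher and 17 lower of 22, from Cdc20 (−1.27), Tpx2 (−1.23) and Plk1 (−1.16) to Birc5 (1.17). Factors of nonsense-mediated decay and the exon junction complex counted 6 higher and 10 lower of 16, with the helicases Upf1 (−1.27) and Eif4a3 (−1.02) lower and their small partners Rbm8a (1.30) and Magohb (1.07) higher. SR splicing factors counted 3 higher and 7 lower of 13: Srsf9 and Srsf12 had 1.02 and 0.71, and Srsf11 and Srsf2 −0.67 and −0.64. Immediate early genes counted 5 higher and 8 lower of 19, the share lower being near that of all genes. Ier5 (−1.17), Jun (−0.88) and Myc (−0.65) were lower and Btg1 (0.76) higher.

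Markers of the cell types in a limb bud were compared between fractions of the same lysates. In bulk RNA, fewer cells of a type and less RNA per cell cannot be told apart, and here the number of cells is shared by the fractions compared. Limb mesenchyme markers counted 5 higher and 2 lower of 10, with Pdgfra lower (−1.05). Erythroid genes counted 10 higher and 2 lower of 12 and summed to 9331 to 23972 FPKM in input and 16438 to 31511 FPKM on polysomes, highest in lysate 3 in both fractions. The globin Hbb-bs had 307, 297 and 753 FPKM in input and 458, 512 and 1144 FPKM on polysomes (log2 0.66, SE 0.08, adjusted p = 3.12e-04), Hbb-bh1 and Hba-a2 had 0.70 and 1.20, and the long membrane protein gene Slc4a1 −0.92. Epidermis genes counted 0 higher and 10 lower of 12 and summed to 357 to 369 FPKM in input and 197 to 207 FPKM on polysomes, with Krt5, Krt15, Cdh1 and Sfn at −1.59, −1.48, −1.53 and −0.80. All 12 lay below the coding-length trend.

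Macrophage genes counted 4 higher and 5 lower of 11, near the 39.2% and 37.9% of all genes, and summed to 48.7 to 54.7 FPKM in input and 58.6 to 65.9 FPKM on polysomes. The short genes Fcer1g (1.17) and Lyz2 (0.65) were higher, and Csf1r (−0.94) and Mrc1 (−0.999) lower. Muscle genes counted 1 higher and 5 lower of 9 (Myh3 −1.35, Des −1.18, Actc1 −0.75 and Tnnt1 0.82). Endothelium genes counted 3 higher and 7 lower of 10 (Cdh5 −2.18, Tie1 −1.33, Kdr −0.91 and Egfl7 0.77). Of 8 neural crest and Schwann genes 5 were tested and 3 were lower, among them Erbb3 (−1.44) and Sox10 (−0.89). The part of these cell types in the ratios of other genes was not tested.

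Mettl14 summed over the whole gene reached 1.26 to 3.32 FPKM in the input libraries labelled cKO, below the 4.03 to 4.09 FPKM of cHet input. On polysomes it reached 2.73 to 3.29 FPKM in cKO and 2.83 to 3.07 FPKM in cHet, so the ranges overlapped and the gene's polysome values do not separate the labels. The same comparison in the 3 cKO lysates, which share no library with the control ones, gave the same direction for 9356 of the 10098 genes called in cHet (92.7%), of which 4272 were also called in cKO. Coding length and the log2 ratio had a rho of −0.53, −0.65 and −0.41 in cKO lysates 1 to 3, those of lysates 1 and 3 weaker than in any control lysate. A test of the difference between genotypes in the ratio, with 13610 genes tested by limma over all 12 libraries, called 0 genes (0.0%), with 896 at an unadjusted p under 0.05 and a lowest adjusted p of 0.641. Medians of the lists in cKO were −1.37 for collagens, −0.68 for cytosolic ribosomal proteins, 0.79 for respiratory subunits, 0.58 for the polyamine pathway and −0.73 for the iron-responsive element list. In cHet they were −1.81, −0.33, 1.03, 0.57 and −0.93. Chaperonins and heat shock genes had −1.26 in cHet and −0.59 in cKO, and ER translocation and folding −0.60 and −0.014. Mitosis genes had −0.77 and −0.19, replication genes −0.82 and −0.30, and actins and tubulins −1.04 and −0.58. Hosts of small nucleolar RNAs (−0.35 and −0.44) and nuclear long noncoding RNAs (−0.54 and −0.71) lay further from 0 in cKO. Some medians took another sign in cKO: NMD and exon junction factors had −0.39 in cHet and 0.13 in cKO, SR splicing factors −0.24 and 0.12, initiation factors −0.091 and 0.038, macrophage genes −0.29 and 0.13, and signalling inhibitors and feedback genes 0.017 and −0.022. A difference that misses the threshold does not show that the genotypes load polysomes alike.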

How the data were processed

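RNA of 3 cHet lysates was sequenced before (input) and after a polysome gradient. Reads were aligned with HISAT2 2.0.5 and counted with featureCounts 1.5.0-p3 on mm10, per the submitters' processing notes; RNA selection and strandedness are not given in the sources used here. The authors deposited FPKM values. Multiplied by gene length these gave whole reads (tolerance 0.01) for 100% of values.

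The 6 cHet libraries were fitted by limma (version 3.58.1, R version 4.3.3) on the scale log2(FPKM + 0.1), the lysate being a block and the variance following an intensity trend; fold changes on this scale understate low genes. Genes needed an FPKM of 1 in 3 libraries, and 278 tested genes reached it in input libraries alone and 164 in polysome libraries alone. Input and polysome share a lysate by the design, and their deviations from group means correlated at 0.17, 0.18 and 0.27. The labels call the lysates biological replicates; with 3 pairs an exact permutation test of a single gene cannot go below p = 0.25. Genotypes were compared by an interaction over 12 libraries. The fit was also run on simulated libraries with the read totals of these 6 (13042 genes). It recovered 74.5% of 94 log2 changes of 0.5 and 98.0% of 98 changes of 1, with 14 false calls. The simulated spread was set in advance and few genes were changed, where 77.1% were called in the data. These rates therefore need not hold for the data.

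Coding lengths, UTRs and upstream AUGs came from 1 GENCODE M21 transcript per gene (complete, principal isoform, longest). Members and gene lists were chosen with earlier results of these data known. The text names the 12 highest and lowest protein-coding and the 5 highest and lowest long noncoding genes called with separate groups and 5 FPKM or more in the higher group, Mettl14, Gdf5 and Runx1 to Runx3, up to 4 members per list by smallest p and members of translational-control lists; Col2a1, mt-Co1, mt-Nd5, the mitochondrial rRNA genes and names said to be chosen later were picked after their values were seen. Named outside this rule were Rack1, Rpl4, Rps2 and Eif3f for their annotated start, and tested genes outside the iron list that hold its element. So were mt-Atp8 for its lack of polysome reads, and Hoxc12, Hoxb4 and Hoxa13 as the Hox genes called lower. Alternatives were other pseudocounts, filters and scalings, voom, no block, robust empirical Bayes and each lysate left out. Some members of the lists are counted but not reported here by name.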

Additional observations from a re-analysis of the deposited data

How the results depend on the processing

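The directions of the length and list patterns held under most of the 15 alternatives run. The number of genes called was 10098, and 9709 with no replicate block, so that the pairing of fractions by lysate moved it by less than 1.5 times, and Alas2, Hbb-bs, Slc4a1 and Hba-a2 lost their call with no block. With all 12 libraries fitted as 4 group means it was 7181, and Mettl14, Sesn2, Ppp1r15b, Hoxa3, Alas2, Amd1, Amd2, Azin1, Azin2, Trps1, Foxc1 and the 4 erythroid genes named were among those that lost their call. On the recovered reads voom called 10364 genes. It was 6651 (2853 lower) with a mean FPKM of 5 or more, where 7913 genes were tested, and 2295 with a log2 change of at least 1 required. Leaving out a lysate gave 8382 to 9406 called genes. The rank correlation with gene length was −0.33 with no filter on low values and −0.35 with quantile normalization, and that with coding length −0.53 and −0.59. The long noncoding minus protein-coding median was 0.44, with 0.34 at a mean FPKM of 5 or more, 0.0 with no filter (28857 genes), 0.30 with a pseudocount of 1 and 0.53 with quantile normalization; without one lysate it was 0.35 to 0.45. The genotype difference called 0 genes in all alternatives run, leaving out cKO lysate 1 or 3, chosen after seeing the data, included.

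Of 685 list medians set against all genes, 571 moved by less than the lysates' SD and 105 by more. The other 9 changed sign from a value larger than that SD. At a mean FPKM of 5 or more these were Frizzled and WNT genes (−0.095), macrophage (0.10) and endothelium (0.27), and macrophage also without replicate 2 (−0.31 to 0.048 over the lysates left out). With the coding-length trend removed, chosen after seeing the data, they were replication-dependent histones (−0.062), Hox genes (−0.019), Sm, LSm and snRNP proteins (−0.18), nonsense-mediated decay factors (0.093) and erythroid genes (−0.17). List medians that lay nearer 0 than the SD and crossed it are not among the 9. Limb patterning factors did so at a mean FPKM of 5 or more (−0.099) and with quantile normalization (−0.15). So did Zfp genes with quantile normalization (0.081) and signalling inhibitors and feedback genes without replicate 2 (0.12). Of 3324 values of 224 named genes, 43 lost their call, 18 gained one and 3 changed sign: Ppp1r15b with protein-coding scaling (−0.00489), and Odc1 (−0.040) and Amd1 (−0.00175) with quantile normalization. The cause was not tested. Depth limits low genes: 1 read in 1 kb was worth 0.0320 to 0.0930 FPKM.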
